A study of Mus musculus with 12 samples.

Results

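The genes described here are 36 genes of fatty acid uptake and oxidation in the heart, listed by name from the transport of fatty acids into the cell to the last step of beta-oxidation, together with 4 regulators of the pathway and 2 genes that accompany it. Each gene was read from its brightest probeset, a set of short probes combined into 1 value, among the 21789 of 35557 probesets that carried a single gene symbol. In this way 34 of the 36 genes were measured. The probeset of *Cpt1b*, the muscle form of carnitine palmitoyltransferase, also carried a second symbol and was left out, and no probeset was listed for *Acsl1*, an acyl-CoA synthetase. Of the measured genes 13, of 15 listed, were placed in a class of genes known to respond strongly to PPAR receptors and are called PPAR-responsive below. The 21 others were not placed in that class, although several of them, such as *Lpl*, *Acadl*, *Acadvl* and *Hadha*, are known PPAR targets too.

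Total heart mRNA of 12 mice was hybridized to Affymetrix Mouse Gene ST arrays, 1 array per mouse, to compare hearts without *Gata4* and hearts without *Gata6*. There were 2 hearts with the cre transgene alone and wildtype *Gata4* and *Gata6* (cre hearts), 2 *Gata4* floxed hearts without cre, 3 *Gata4*-deleted hearts (floxed *Gata4* with cre), 2 *Gata6* floxed hearts without cre and 3 *Gata6*-deleted hearts (floxed *Gata6* with cre). All mice were labelled as 8 weeks old, and the labels give no treatment beside cre expression. The labels state that cre came from an alpha-myosin heavy chain transgene whereas the study's methods name a beta-myosin heavy chain promoter, and in both cases deletion is driven by a cardiomyocyte gene, so that other cells of the heart keep the floxed gene. Values are log2 signals, in which a difference of 1 is a 2-fold difference, and levels are compared between hearts and never between genes, because probes differ in brightness.

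Cardiomyocytes obtain most of their energy by oxidizing long-chain fatty acids. These are released from lipoproteins at the vessel wall, taken up across the plasma membrane, activated to acyl-CoA esters, carried into mitochondria by the carnitine shuttle and shortened there in repeated cycles of dehydrogenation, hydration, dehydrogenation and thiolysis. Many of the genes are transcribed under PPAR-alpha, a nuclear receptor that is itself activated by fatty acids, binds DNA together with a retinoid X receptor and is assisted by the coactivator PGC-1alpha.

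The arrays were alike in scale, with medians between 5.61 and 5.66 and correlations between any 2 arrays of 0.979 to 0.991. The mean over 10 cardiomyocyte markers was 12.42 to 12.51 in all hearts, with 12.48 and 12.51 in the *Gata4* floxed hearts and 12.42 to 12.44 in the *Gata4*-deleted hearts. With *Gata4* deletion 8 of the 10 markers were negative, with a median log2 difference of -0.06 beside 0.00 for all probesets. With *Gata6* deletion 4 were negative and the median was 0.01. The *Gata4* probeset read 9.16 to 9.25 in *Gata4*-deleted hearts and 9.23 to 9.26 in *Gata4* floxed hearts, and the *Gata6* probeset read 8.98 to 9.21 in *Gata6*-deleted hearts and 8.69 to 9.09 in *Gata6* floxed hearts. Both summarize probes along the transcript, so these values do not read the floxed exon by itself and give no check of the deletion. In RNA of whole hearts, fewer cells of a type and less RNA per cell cannot be told apart. The p-values below set differences between group means against the spread of these few hearts within groups.

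As a group, the genes of fatty acid oxidation differed little with either deletion when set against the floxed hearts of the same line. They differed more between the hearts of the *Gata4* line and those of the *Gata6* line, whether or not the gene was deleted. A score was formed for each heart as the mean, over the 34 genes, of the log2 signal minus that gene's mean over the 12 hearts. The score was 0.08 and 0.14 in the cre hearts, 0.20 and -0.01 in the *Gata4* floxed hearts, and 0.02, 0.07 and -0.03 in the *Gata4*-deleted hearts. In the *Gata6* line it was -0.10 and -0.08 in the floxed hearts and -0.07, -0.05 and -0.17 in the *Gata6*-deleted hearts. Every heart of the *Gata6* line was therefore below every other heart, while the floxed and deleted hearts overlapped within each line. Among *Gata4* floxed hearts, heart 1 gave the highest signal of all 12 hearts in 15 of the 34 genes, and *Gata6*-deleted heart 3 gave the lowest in 21. The pooled SD of the score between hearts of a group was 0.07, and the score is given without a test because the genes were chosen with results of these hearts known.

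**Figure D1:**
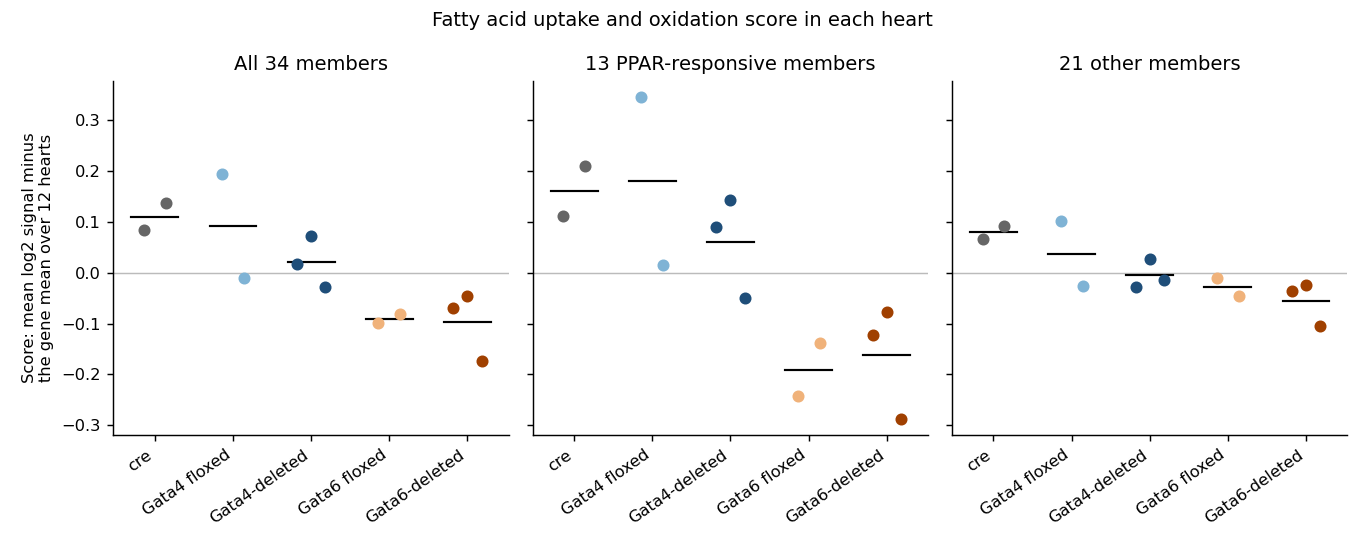
Score of fatty acid uptake and oxidation genes (y axis, mean log2 signal minus the gene's mean over the 12 hearts) in each heart, for all 34 genes, the 13 PPAR-responsive genes and the 21 other genes, with 1 point per heart and a line at the mean of each group. For all genes and for the PPAR-responsive genes the 5 hearts of the *Gata6* line lie below the 7 other hearts, and for the 21 other genes the groups lie closer together and overlap.

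The score of the 13 PPAR-responsive genes spread more widely, again with every heart of the *Gata6* line below every other heart. It was 0.11 and 0.21 in the cre hearts, 0.35 and 0.02 in the *Gata4* floxed hearts, 0.09, 0.14 and -0.05 in the *Gata4*-deleted hearts, -0.24 and -0.14 in the *Gata6* floxed hearts and -0.12, -0.08 and -0.29 in the *Gata6*-deleted hearts. The difference of the *Gata4* line minus the *Gata6* line, each taken as the mean of its floxed and its deleted group, was 0.30 for the PPAR-responsive genes and 0.06 for the 21 others, beside pooled SDs between hearts of 0.13 and 0.05. These means rest in part on 3 genes, *Pdk4* (1.05) and *Ucp3* (0.84) in the first class and *Hadh* (-0.80) among the others. The median difference between lines was 0.26 over the PPAR-responsive genes and 0.07 over the others. Both classes came from lists drawn up with earlier results of these data known, so their contrast is a description without a test. Within lines the PPAR-responsive score differed by -0.12 with *Gata4* deletion and by 0.03 with *Gata6* deletion.

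None of the 34 genes passed the test with deletion of *Gata4*. By limma over all 35557 probesets, at a Benjamini-Hochberg adjusted p under 0.05, 65 probesets (0.183%) differed between *Gata4*-deleted and *Gata4* floxed hearts, and 0 of the 34 genes were among them. At an unadjusted p under 0.05 there were 3 of the 34, beside 9.42% of all probesets. The study's methods name a t-test for experiments with 2 groups but do not name the test used for the arrays. That t-test, called the methods' t-test below, gave 2, beside 8.07% of all probesets, before and 0 after adjustment. The median log2 difference of the 34 genes was -0.07 beside 0.00 for all probesets, with 24 genes negative and 10 positive. All deleted hearts lay below all floxed hearts in 4 genes (*Acadvl*, *Acot1*, *Echs1* and *Etfb*), a separation that 13% of all probesets showed, and above them in 2 genes (*Ppara* and *Ppargc1a*), beside 12.7% of all probesets. The 95% confidence interval of the difference lay within a 1.5-fold change in either direction for 29 of the 34 genes, while the intervals of *Pdk4*, *Ucp3*, *Angptl4*, *Acot1* and *Ppara* reached beyond it. The score difference of -0.07 became 0.03 without *Gata4* floxed heart 1 and -0.17 without *Gata4* floxed heart 2.

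Against the *Gata6* floxed hearts, deletion of *Gata6* gave no call in any gene on the array, and the 34 genes were centred on no difference. Of all probesets 0 (0%) passed in limma, and of the 34 genes 0 passed, 1 had an unadjusted p under 0.05, beside 4.91% of all probesets, and 0 passed or reached that level by the methods' t-test. The median difference was 0.00, with 17 genes positive and 17 negative. In 3 genes (*Acot1*, *Acaa2* and *Eci2*) every deleted heart lay below every floxed heart, as did 9.23% of all probesets, and in *Cpt1a* every deleted heart lay above every floxed heart, as did 9.89% of all probesets. The interval lay within a 1.5-fold change for 31 of the 34 genes. With other controls the score difference was -0.21 (cre hearts), -0.11 (cre and *Gata6* floxed hearts) and -0.13 (all 6 control hearts). In the same order 183, 93 and 142 of all 35557 probesets passed in limma, and 0 of the 34 genes did. The change with *Gata4* deletion minus the change with *Gata6* deletion passed for 6 probesets (0.0169%), and for 0 of the 34 genes, none of which had an unadjusted p under 0.05. The methods' t-test has no form for that difference. Averaged over both deletions, a comparison added after the data were seen, 34 probesets (0.0956%) and 0 of the 34 genes passed in limma. Of the 34 genes 2 had an unadjusted p under 0.05, *Acot1* at -0.34 and *Echs1* at -0.13, beside 8.33% of all probesets, and the methods' t-test has no form for this comparison either.

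**Figure D2:**
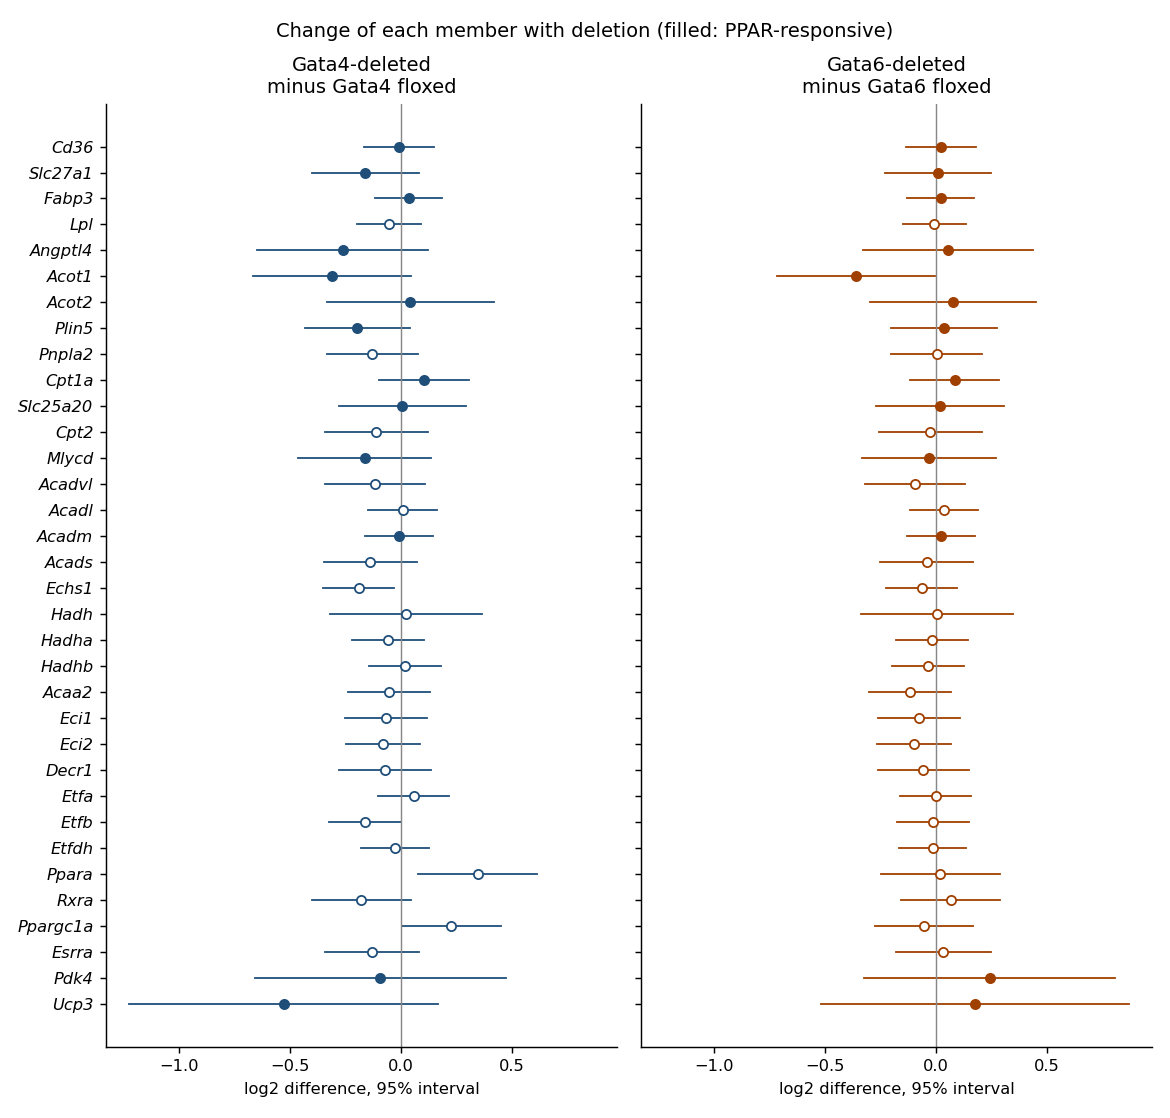
Log2 difference of each of the 34 genes (points) with its 95% confidence interval (lines) for *Gata4*-deleted minus *Gata4* floxed hearts and for *Gata6*-deleted minus *Gata6* floxed hearts, with genes in the order of the pathway and PPAR-responsive genes filled. The point estimates run from -0.53 to 0.35 with *Gata4* deletion and from -0.36 to 0.24 with *Gata6* deletion, and the widest intervals are those of *Ucp3* and *Pdk4*.

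The 34 genes differed more between lines. In *Gata4*-deleted minus *Gata6*-deleted hearts 384 probesets (1.08%) passed in limma, among them 1 of the 34 genes, *Hadh*. Of the 34 genes 29 were positive, the median was 0.08 beside 0.01 for all probesets, and in 12 genes every *Gata4*-deleted heart lay above every *Gata6*-deleted heart, as did 8.58% of all probesets. The reverse held in 3 genes, *Cpt1a*, *Hadh* and *Lpl*, beside 9.55% of all probesets. At an unadjusted p under 0.05 there were 8 of the 34 genes beside 11.7% of all probesets, and the methods' t-test gave 10 of the 34 beside 10.6% before and 0 after adjustment. In *Gata4* floxed minus *Gata6* floxed hearts, an independent set of mice, 81 probesets (0.228%) passed and 0 of the 34 genes did, with 11 at an unadjusted p under 0.05 beside 10.3% of all probesets, and with 3, beside 6.45% of all probesets, before and 0 after adjustment by the methods' t-test. Again 29 genes were positive, and the median was 0.13 beside 0.00. The sign was the same in both comparisons, which share no hearts, for 30 of the 34 genes (88.2%), beside 58.6% of all probesets, and for 13 of the 13 PPAR-responsive genes. The share over all probesets includes dim ones, whereas all 34 genes were brighter than the median probeset. The genes also moved together within single hearts, so they are not separate observations.

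**Figure D3:**
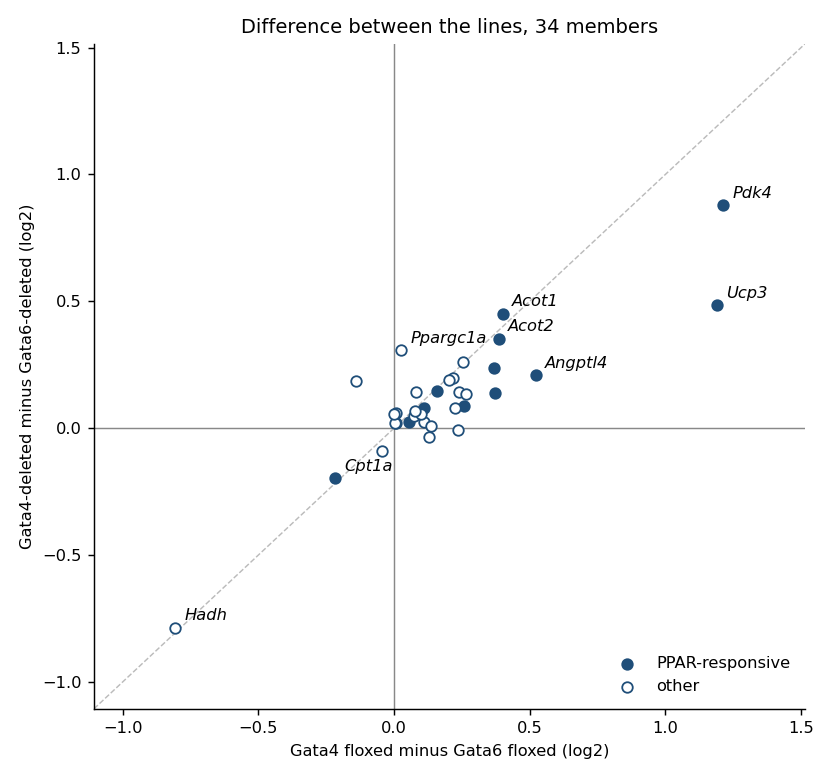
Log2 difference between lines for each of the 34 genes, in floxed hearts without deletion (x axis, 2 against 2 hearts) and in deleted hearts (y axis, 3 against 3 hearts), with PPAR-responsive genes filled and a dashed line of equal values. Most genes lie in the upper right, *Pdk4* at 1.21 and 0.88 and *Ucp3* at 1.19 and 0.49, while *Hadh* lies at -0.81 and -0.79.

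A mean over both pairs of groups, *Gata4* line minus *Gata6* line, was added after these values had been seen. In it 736 probesets (2.07%) passed in limma and 2 of the 34 genes did, *Pdk4* higher and *Hadh* lower in the *Gata4* line. At an unadjusted p under 0.05 there were 15 genes higher and 2 lower, beside 14.8% of all probesets in either direction, and the methods' t-test gave 19 genes, beside 13.7% of all probesets, before and 1, *Hadh*, after adjustment, whereas *Pdk4* did not pass it (adjusted p = 0.0618). All 5 hearts of the *Gata4* line lay above all 5 of the *Gata6* line in 7 genes, *Acadm*, *Acadvl*, *Acads*, *Eci1*, *Decr1*, *Pdk4* and *Pnpla2*, as did 1.99% of all probesets, and below in 2, *Cpt1a* and *Hadh*, as did 2.74% of all probesets. Line, litter, background strain and any array run that followed the line cannot be told apart in this design, and the labels give no strain.

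The cre hearts carried neither floxed gene. In cre hearts minus the mean of both floxed groups, 34 probesets (0.0956%) passed in limma and 0 of the 34 genes did, with 4 at an unadjusted p under 0.05 beside 8.33% of all probesets, and with 4, beside 6.22%, before and 0 after adjustment by the methods' t-test. The median difference of the 34 genes was 0.11 beside 0.01 for all probesets, and 29 were positive. The sequences before the transcription start of the 3 genes that differed most between lines, *Pdk4*, *Ucp3* and *Hadh*, are printed here because *Pdk4* and *Ucp3*, both placed in the PPAR-responsive class, were higher on average in the *Gata4* line and *Hadh*, outside that class, was lower.

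The sequences are the 250 bases before the RefSeq transcription start in assembly GRCm38.p6, read 5' to 3' on the strand of the gene. That of *Pdk4* is chr6:5496279-5496528 on the minus strand, that of *Ucp3* is chr7:100472741-100472990 on the plus strand and that of *Hadh* is chr3:131272102-131272351 on the minus strand. Capitals mark a match to the PPAR response element searched, AGGTCANAGGTCA, a direct repeat of AGGTCA with 1 free base between the copies, on either strand and with up to 2 mismatches among its 12 fixed letters.
Pdk4: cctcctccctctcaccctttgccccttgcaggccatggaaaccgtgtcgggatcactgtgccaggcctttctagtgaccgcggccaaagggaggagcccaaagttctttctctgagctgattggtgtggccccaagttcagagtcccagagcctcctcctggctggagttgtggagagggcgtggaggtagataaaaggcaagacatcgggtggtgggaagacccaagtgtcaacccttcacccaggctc
Ucp3: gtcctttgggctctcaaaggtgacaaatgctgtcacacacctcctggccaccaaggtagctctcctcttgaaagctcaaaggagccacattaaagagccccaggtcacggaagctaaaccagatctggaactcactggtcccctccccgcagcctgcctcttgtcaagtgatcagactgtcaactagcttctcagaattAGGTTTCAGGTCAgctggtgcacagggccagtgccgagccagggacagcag
Hadh: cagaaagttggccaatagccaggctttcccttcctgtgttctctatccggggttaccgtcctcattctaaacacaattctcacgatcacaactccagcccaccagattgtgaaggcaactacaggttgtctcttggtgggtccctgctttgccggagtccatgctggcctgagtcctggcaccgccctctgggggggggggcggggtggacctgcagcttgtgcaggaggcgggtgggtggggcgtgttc
Only that of *Ucp3* among these 3 held a match, which began 51 bases before the start. Such a match was found in 3.24% of 32851 promoters of the same length and in 5 of 36 promoters of 31 listed genes (13.9%), those of *Rxra*, *Cd36*, *Ucp3*, *Echs1* and *Etfa*. The single AGGTCA, which every exact copy of the repeat also contains, was found on either strand in 14% of all promoters and in 22.2% of the listed genes' promoters. A match is a description of the letters and not evidence of binding.

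*Pdk4* and *Ucp3* differed most between the lines among the PPAR-responsive genes. *Pdk4* encodes pyruvate dehydrogenase kinase 4, which switches off pyruvate dehydrogenase and so spares glucose when fatty acids are burned. Its signal was 11.27 and 11.56 in the cre hearts, 11.75 and 10.82 in the *Gata4* floxed hearts, 11.43, 11.16 and 10.99 in the *Gata4*-deleted hearts, 9.86 and 10.28 in the *Gata6* floxed hearts and 10.41, 10.34 and 10.19 in the *Gata6*-deleted hearts. The 5 hearts of the *Gata6* line (9.86 to 10.41) did not overlap with the 7 others (10.82 to 11.75). The line difference was 1.05 (SE 0.18, 95% interval 0.65 to 1.45, adjusted p = 0.0178, limma), or 2.07-fold, and the adjusted p was 0.00807 to 0.0492 when each of the 10 hearts was left out in turn. In deleted hearts alone it was 0.88 (adjusted p = 0.13) and in floxed hearts alone 1.21 (adjusted p = 0.149), a value that was 0.75 without *Gata4* floxed heart 1 and 1.68 without *Gata4* floxed heart 2. With deletion it differed by -0.09 (SE 0.25, 95% interval -0.66 to 0.47) for *Gata4* and by 0.24 (SE 0.25, 95% interval -0.32 to 0.81) for *Gata6*, and neither passed.

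*Ucp3* encodes uncoupling protein 3 of the inner mitochondrial membrane, which rises in muscle when fatty acid supply is high. Its signal was 8.41 and 8.67 in the cre hearts, 9.16 and 8.22 in the *Gata4* floxed hearts, 8.30, 8.30 and 7.89 in the *Gata4*-deleted hearts, 7.49 and 7.52 in the *Gata6* floxed hearts and 8.11, 7.76 and 7.16 in the *Gata6*-deleted hearts. The lines overlapped through *Gata4*-deleted heart 3 and *Gata6*-deleted heart 1. The line difference was 0.84 (SE 0.22, 95% interval 0.35 to 1.33, adjusted p = 0.097, limma) and did not pass. The difference with *Gata4* deletion, -0.53 (SE 0.31, adjusted p = 0.674), was the largest decrease estimated among the 34 genes and was -0.06 without *Gata4* floxed heart 1 and -1.0 without *Gata4* floxed heart 2. The difference with *Gata6* deletion was 0.18 (SE 0.31, adjusted p = 0.999) against the floxed hearts, and it was -0.86 against the cre hearts, -0.34 against cre and floxed hearts together and -0.57 against all 6 control hearts, none of which passed.

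*Hadh* ran the other way. It encodes the mitochondrial dehydrogenase that oxidizes short- and medium-chain 3-hydroxyacyl-CoA, the second dehydrogenation of each cycle. Its signal was 10.72 and 10.70 in the cre hearts, 10.72 and 10.52 in the *Gata4* floxed hearts, 10.59, 10.68 and 10.66 in the *Gata4*-deleted hearts, 11.64 and 11.21 in the *Gata6* floxed hearts and 11.69, 11.24 and 11.36 in the *Gata6*-deleted hearts. The 5 hearts of the *Gata6* line all lay above the 7 others, floxed and deleted hearts alike. The line difference was -0.80 (SE 0.11, 95% interval -1.04 to -0.55, adjusted p = 0.00779, limma), or 0.576-fold, with an adjusted p of 0.0083 to 0.0426 when each heart was left out. In deleted hearts it was -0.79 (SE 0.14, adjusted p = 0.0286), and without *Gata4*-deleted heart 1, 2 or 3 or *Gata6*-deleted heart 1 or 3 the adjusted p was 0.0734 to 0.115 and the call was lost. In floxed hearts it was -0.81 (SE 0.17, adjusted p = 0.115). With *Gata4* deletion *Hadh* differed by 0.02 (SE 0.15, 95% interval -0.32 to 0.36) and with *Gata6* deletion by 0.00 (SE 0.15, 95% interval -0.34 to 0.34).

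**Figure D4:**
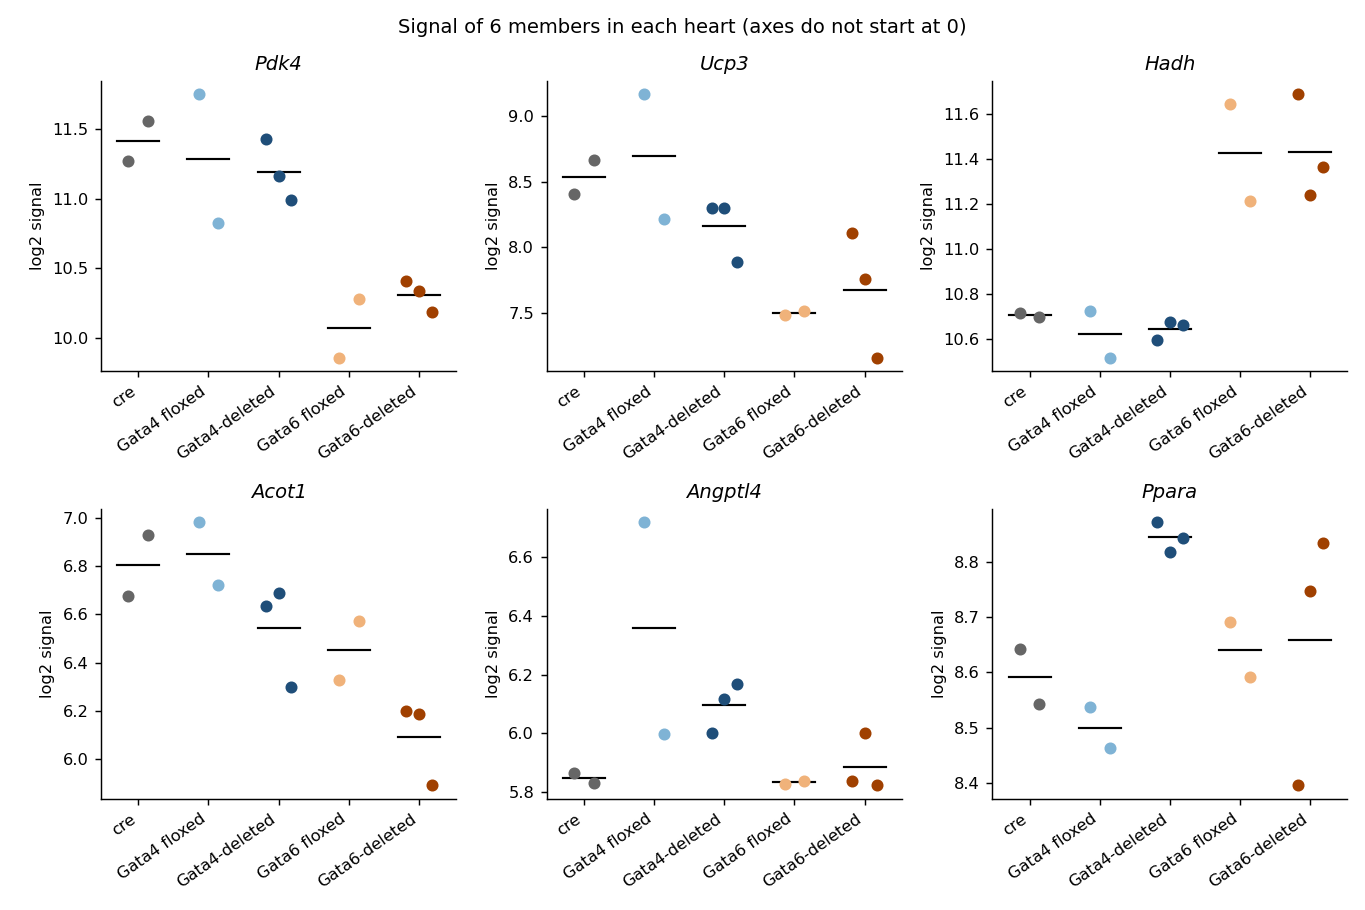
Log2 signal (y axes, which do not start at 0) of *Pdk4*, *Ucp3*, *Hadh*, *Acot1*, *Angptl4* and *Ppara* in each heart by group, with 1 point per heart and a line at the group mean. *Pdk4* and *Hadh* separate the *Gata6* line from all other hearts in opposite directions, while *Ppara* is between 8.82 and 8.87 in the *Gata4*-deleted hearts and 8.46 and 8.54 in the *Gata4* floxed hearts.

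No gene of uptake and trafficking passed in any comparison, and the widest departure was that of *Angptl4* in a single heart. *Cd36*, the main fatty acid translocase, lay between 12.27 and 12.43 in the 12 hearts and *Fabp3*, the cytosolic fatty acid binding protein of heart, between 12.76 and 12.87. *Lpl*, the lipase that frees fatty acids from lipoproteins, lay between 12.44 and 12.60, with a *Gata4* line minus *Gata6* line difference of -0.07 (SE 0.05). *Slc27a1*, a transporter that also activates fatty acids, differed by 0.17 (SE 0.08, adjusted p = 0.331, limma) between lines. *Angptl4*, a secreted inhibitor of lipoprotein lipase, read 6.72 and 6.0 in the *Gata4* floxed hearts, 6.0, 6.12 and 6.17 in the *Gata4*-deleted hearts and 5.82 to 6.0 in the *Gata6* line and the cre hearts. Only *Gata4* floxed heart 1 stood apart. The difference with *Gata4* deletion was -0.26 (SE 0.17, adjusted p = 0.715) and turned to 0.10 without that heart.

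Of the genes of activation, the acyl-CoA thioesterases *Acot1* (cytosolic) and *Acot2* (mitochondrial), which hydrolyse acyl-CoA, are near-identical neighbours, so probes could in part read both and their values are uncertain. *Acot1* read 6.68 and 6.93 in the cre hearts, 6.98 and 6.72 in the *Gata4* floxed hearts, 6.64, 6.69 and 6.30 in the *Gata4*-deleted hearts, 6.33 and 6.57 in the *Gata6* floxed hearts and 6.20, 6.19 and 5.89 in the *Gata6*-deleted hearts. It was the gene whose deleted hearts lay below the floxed hearts in both lines, with differences between deleted and floxed hearts of -0.31 (SE 0.16, adjusted p = 0.605, limma) in the *Gata4* line and -0.36 (SE 0.16, adjusted p = 0.999) in the *Gata6* line, neither of which passed. With each heart left out in turn the first ran from -0.44 (without *Gata4* floxed heart 2) to -0.18 (without *Gata4* floxed heart 1) and the second from -0.48 (without *Gata6* floxed heart 1) to -0.24 (without *Gata6* floxed heart 2). Its line difference was 0.43 (SE 0.11, adjusted p = 0.0991), and that of *Acot2* was 0.37 (SE 0.12, adjusted p = 0.173). For *Acot2* the differences with deletion were 0.04 for *Gata4* and 0.08 for *Gata6*.

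The 2 lipid droplet genes gave small line differences of one sign. *Plin5* encodes perilipin 5, which coats droplets next to mitochondria, and *Pnpla2* encodes adipose triglyceride lipase, which releases fatty acids from them. The *Gata4* line minus *Gata6* line difference was 0.26 (SE 0.08, adjusted p = 0.136, limma) for *Plin5* and 0.20 (SE 0.07, adjusted p = 0.181) for *Pnpla2*. With *Gata4* deletion *Plin5* differed by -0.20 and *Pnpla2* by -0.13, and with *Gata6* deletion by 0.04 and 0.00.

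In the carnitine shuttle the measured carnitine palmitoyltransferase 1 gene ran against its neighbours. *Cpt1a*, the liver form of the enzyme that commits fatty acids to mitochondrial entry, read 8.08 to 8.36 in the 5 hearts of the *Gata4* line, 8.39 to 8.52 in the 5 hearts of the *Gata6* line and 8.46 and 8.62 in the cre hearts. The line difference was -0.21 (SE 0.06, adjusted p = 0.157, limma), so *Cpt1a* was the 1 PPAR-responsive gene of the 13 with a negative value. *Mlycd* encodes malonyl-CoA decarboxylase, which removes the inhibitor of that enzyme, and its line difference was 0.30 (SE 0.10, adjusted p = 0.168). *Slc25a20*, the carnitine-acylcarnitine carrier, differed by 0.15 and *Cpt2*, which returns the acyl group to CoA in the matrix, by 0.07. With either deletion these 4 genes differed by -0.16 to 0.10.

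The acyl-CoA dehydrogenases, which open each cycle on chains of decreasing length, were all positive between lines. The *Gata4* line minus *Gata6* line difference was 0.21 for *Acadvl* (very long chain, adjusted p = 0.202, limma), 0.06 for *Acadl* (long chain), 0.10 for *Acadm* (medium chain) and 0.19 for *Acads* (short chain, adjusted p = 0.209). *Acadvl* read 11.20 to 11.40 in the *Gata4* line and 10.84 to 11.18 in the *Gata6* line. The lowest value was that of *Gata6*-deleted heart 3, and the other 4 hearts of that line were at 11.12 or above. *Acadvl* differed by -0.12 (SE 0.10) with *Gata4* deletion and by -0.09 (SE 0.10) with *Gata6* deletion.

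Of the later steps of the cycle, *Hadh* was the exception. *Hadha* and *Hadhb*, the subunits of the trifunctional protein that performs the later steps on long chains, differed between lines by 0.08 and 0.03. *Acaa2*, a mitochondrial thiolase, differed by 0.11 and *Echs1*, the short-chain enoyl-CoA hydratase, by 0.07. *Echs1* had the smallest unadjusted p among the genes that were lower with *Gata4* deletion, with signals of 11.00 and 10.95 in the floxed and 10.73, 10.83 and 10.79 in the deleted hearts and a difference of -0.19 (SE 0.07, 95% interval -0.35 to -0.03, adjusted p = 0.422, limma). The auxiliary enzymes for unsaturated chains, *Eci1*, *Eci2* and *Decr1*, differed between lines by 0.26, 0.01 and 0.20. *Eci1*, an enoyl-CoA isomerase, read 10.73 to 10.91 in the *Gata4* line and 10.40 to 10.62 in the *Gata6* line (adjusted p = 0.0594). The electron transfer flavoprotein genes *Etfa* and *Etfb* and its dehydrogenase *Etfdh*, which pass the electrons to the respiratory chain, differed by 0.03, 0.15 and 0.07.

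Among the regulators, *Ppara* and *Ppargc1a* had the highest point estimates with *Gata4* deletion, and neither passed. *Ppara*, which encodes PPAR-alpha, read 8.64 and 8.54 in the cre hearts, 8.54 and 8.46 in the *Gata4* floxed hearts, 8.87, 8.82 and 8.84 in the *Gata4*-deleted hearts, 8.69 and 8.59 in the *Gata6* floxed hearts and 8.40, 8.75 and 8.83 in the *Gata6*-deleted hearts. The *Gata4*-deleted hearts lay above both *Gata4* floxed hearts and overlapped with the *Gata6*-deleted hearts, and the difference was 0.35 (SE 0.12, 95% interval 0.08 to 0.61, adjusted p = 0.367, limma). *Ppargc1a*, which encodes PGC-1alpha, read 9.0 and 9.02 in the *Gata4* floxed hearts, 9.10, 9.19 and 9.42 in the *Gata4*-deleted hearts and 9.31 and 9.18 in the cre hearts. The difference with *Gata4* deletion was 0.23 (SE 0.10, adjusted p = 0.515) from this probeset and 0.28 from a second one, and -0.01 with cre hearts as the control. *Rxra*, the retinoid X receptor partner, and *Esrra*, an orphan receptor that PGC-1alpha also assists, differed by -0.18 and -0.13 with *Gata4* deletion and by 0.07 and 0.03 with *Gata6* deletion. *Ppara* was highest on average in the *Gata4*-deleted hearts, and the PPAR-responsive genes had a median difference of -0.09 in the same comparison, with 9 of 13 negative.

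Of 41 genes of fatty acid metabolism outside the list 37 were measured, 0 passed in limma with either deletion (9 at an unadjusted p under 0.05 with *Gata4* deletion, 4 higher and 5 lower, beside 9.42% of all probesets, and 0 with *Gata6* deletion, and 0 after adjustment by the methods' t-test in both), and 2 were higher in the *Gata4* line and none lower. These were *Lipe*, hormone-sensitive lipase, at 0.45 (SE 0.08, adjusted p = 0.0172) and *Crat*, carnitine acetyltransferase, at 0.32 (SE 0.06, adjusted p = 0.0317). Of 12 genes of glucose use, 1 was higher and 1 lower in the *Gata4* line, *Pdk1*, another pyruvate dehydrogenase kinase, at 0.64 (SE 0.06, adjusted p = 0.00171) and *Pfkfb2*, the heart enzyme that makes the activator of phosphofructokinase, at -0.42 (SE 0.07, adjusted p = 0.0167). *Pfkfb2* passed in deleted hearts alone at -0.55 (adjusted p = 0.0195) but not in floxed hearts alone (-0.29, adjusted p = 0.397), and it was -0.58 (SE 0.10, adjusted p = 0.0608) with *Gata4* deletion and -0.32 (adjusted p = 0.842) with *Gata6* deletion. *Pdk1* also passed in floxed hearts alone at 0.72 (adjusted p = 0.026) and in deleted hearts alone at 0.56 (adjusted p = 0.0127).

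Markers of other cells and of the state of the animals moved with some of these groups. Of 7 adipocyte markers measured, 7 were positive between lines, beside 51.7% of all probesets. In limma 2 passed, beside 2.07% of all probesets, *Plin1* at 0.47 (adjusted p = 0.0118) and *Lipe*, which is also in the list of fatty acid metabolism. The mean of the 7 was 5.53 to 5.72 in the *Gata4* line, 5.24 to 5.35 in the *Gata6* line and 5.37 and 5.41 in the cre hearts. *Adipoq*, chosen after its values were seen, read 4.74 to 5.29, 4.16 to 4.64 and 4.16 and 4.75 in these. In every heart *Adipoq*, *Retn*, *Lep* and *Ucp1* read below the array medians of 5.61 to 5.66, so most of these markers gave weak signals. Of 10 genes that follow glucocorticoids or the day-night cycle, 3 were higher and 1 lower with *Gata4* deletion in limma, beside 0.183% of all probesets. These were *Ciart* at 1.67, *Per1* at 1.45 and *Tsc22d3* at 1.03 against *Arntl* at -1.37. The methods' t-test gave 8 of the 10, beside 8.07% of all probesets, before and 0 after adjustment. The mean of the 10 genes was 7.18 and 7.29 in the *Gata4* floxed hearts and 7.57 to 7.99 in the 10 other hearts. With *Gata6* deletion 0 of the 10 passed in limma and 0 had an unadjusted p under 0.05. The methods' t-test gave 1 of the 10, beside 4.62% of all probesets, before and 0 after adjustment. In limma 3 of the 10 were lower in *Gata4* floxed than in *Gata6* floxed hearts, beside 0.228% of all probesets. Between lines 3 were lower in the *Gata4* line, beside 2.07%. The *Gata4* floxed group is thus the control that stood apart in these genes, and it is also the group in which the 2 hearts differed most in the fatty acid score. All 8 macrophage markers were negative with *Gata4* deletion, with a median of -0.49, and 6 had an unadjusted p under 0.05 in limma and by the methods' t-test, beside 9.42% and 8.07% of all probesets, but none passed (smallest adjusted p = 0.0704). Their mean was 6.93 to 6.94 in the *Gata4*-deleted hearts and 7.25 and 7.46 in the *Gata4* floxed hearts, and with *Gata6* deletion none reached an unadjusted p under 0.05. Between the deleted groups 1 passed, *Adgre1*, at 6.39 on average with *Gata4* deleted and 7.14 with *Gata6* deleted (-0.76, adjusted p = 0.0404), and against the *Gata4* floxed hearts it was -0.64 (adjusted p = 0.188). The mean of 8 endothelial markers was 9.07 to 9.30 and that of 8 skeletal muscle markers 5.03 to 5.25 in all hearts. The endothelial mean covers moves in both directions, as 3 markers were positive and 5 negative with *Gata4* deletion. In limma 1 was higher and 1 lower at an unadjusted p under 0.05, beside 9.42% of all probesets, and none passed (smallest adjusted p = 0.152). Of 5 erythroid markers 1 was measured, *Alas2*, which read 8.6 in *Gata4* floxed heart 2 and 6.62 to 7.39 in the 11 other hearts and differed by -1.14 (SE 0.36, adjusted p = 0.32) with *Gata4* deletion. The part of these markers in the values of the fatty acid genes was not tested.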

How the data were processed

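Hearts of 12 mice were measured with 1 Affymetrix array each. Per the labels, the authors made the deposited log2 values by RMA, which corrects background, normalizes arrays to each other and combines probes into probesets. Its version and annotation are not given in the sources used here. RMA sets the arrays to a common distribution, so a shift of most genes at once would not be seen. A second deposited table holds ratios in 12 columns that could not be assigned to hearts from the labels, and was left out. Symbols came from the platform's probe table, which listed 23410 of the 35557 probesets, 21789 with 1 symbol and 1621 with several, and 12147 unlisted probesets stayed in the tests.

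One limma model (version 3.58.1, R 4.3.3) with a mean per group was fitted to the 12 arrays (7 residual and 2.50 prior degrees of freedom, prior SD 0.124). Tests were two-sided, Benjamini-Hochberg adjustment covered all probesets, and intervals are 95% confidence intervals of the difference. The model was tested on simulated data. The methods' t-test assumed equal variance. Between lines and for the cre hearts it pooled the hearts of groups that limma entered as a mean of group means. The number of arrays limits the precision. The members and the gene lists were chosen with earlier results of these data known. All members are named, of other lists up to 4 genes that passed in a comparison, and *Gata4* and *Gata6*, and any other gene was picked with its values known. The line comparison and the mean of both deletions were added after the data were seen. Alternatives were median centring, quantile normalization, a filter on dim probesets, a trend and robust prior, the replicate number as a block, averages per gene, only the arrays compared, other controls, medians, subsets of members, a threshold of 0.1, the t-test of the methods, and each heart left out in turn. Promoters came from RefSeq (GRCm38.p6), with 36 entries for 31 of the listed genes.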

Additional observations from a re-analysis of the deposited data

How the results depend on the processing

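With each heart left out in turn, the score difference ran from -0.175 to 0.0311 for *Gata4* deletion, from -0.169 to 0.0371 for the change with *Gata4* deletion minus that with *Gata6* deletion, and from 0.0798 to 0.286 between the floxed lines, with the ends set by *Gata4* floxed hearts 1 and 2. The count of members that passed ran from 0 to 1 between *Gata4*-deleted and *Gata6*-deleted hearts, where *Hadh* was lost without any of 5 of the 6 hearts. *Angptl4* ran from -0.62 to 0.10 with *Gata4* deletion, and in the difference between both deletions *Pdk4* ran from -0.80 to 0.13 and *Angptl4* from -0.68 to 0.0444, each turning only without *Gata4* floxed heart 1. Other controls moved the *Gata6* score, which was -0.21 against cre hearts, -0.11 against cre and own floxed hearts and -0.13 against all 6 control hearts. In the same order *Pdk4* with *Gata6* deletion was -1.10, -0.43 and -0.61. Its mean was 11.411 in the cre, 11.285 in the *Gata4* floxed and 11.192 in the *Gata4*-deleted hearts. It was 10.071 in the *Gata6* floxed and 10.312 in the *Gata6*-deleted hearts. With *Gata4* deletion, *Angptl4* was 0.25 against cre hearts and 0.0809 against all 6 control hearts, and *Ppargc1a* was -0.0113 against cre hearts. With the PPAR-responsive members only, the score was -0.15 for the difference between both deletions, 0.22 between deleted hearts, 0.37 between floxed hearts and 0.30 between lines, and with the other members only 0.0658 between floxed hearts and 0.0581 between lines. Between deleted hearts 0 members passed with only the arrays compared and 0 by the methods' t-test. With a filter on dim probesets, which tests fewer probesets, 1 member passed between floxed hearts (*Hadh*) and 5 between lines, and 5 passed between lines at an adjusted p under 0.1. *Eci1* passed between lines with quantile normalization (adjusted p = 0.0335, limma). *Angptl4* between lines was 0.55 without *Gata4* floxed heart 2, which leaves heart 1, the heart that stood apart, alone in its group. Without *Gata4* floxed heart 1 it was 0.19.

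Between hearts of the same replicate number, deviations from the group mean had correlations of -0.03 to 0.11. In the cre and floxed groups the deviations of the hearts mirror each other, so correlations between these groups repeat the same value. These correlations therefore cannot decide whether the replicate numbers pair the hearts. With the replicate block, *Pdk4* and *Hadh* still passed between lines (adjusted p = 0.0455 and 0.0153) and *Hadh* between deleted hearts (adjusted p = 0.0391), and no call among the members changed. Over all probesets the replicate block moved the calls from 65 to 14 with *Gata4* deletion, from 6 to 0 for the difference between both deletions, from 384 to 234 between deleted hearts, from 81 to 35 between floxed hearts, from 34 to 4 for cre hearts, from 736 to 472 between lines and from 34 to 0 for the mean of both deletions. Of the values of single members that were at least 0.2 (log2) in size or passed, over all alternatives, 840 kept sign and side of the threshold, 9 changed sign, 7 lost and 7 gained a call. The 7 lost calls were all that of *Hadh* between deleted hearts. Only that value and those of *Hadh* and *Pdk4* between lines passed at first, so most of the 840 were values that passed in neither fit. The methods' t-test between lines, which *Pdk4* did not pass, is not in these counts. Over all 34 members whatever their size, the sign turned against cre hearts, against cre and own floxed hearts and against all 6 control hearts in 7, 4 and 6 with *Gata4* deletion and in 14, 11 and 14 with *Gata6* deletion, and none passed. The methods' t-test was not run for the difference between both deletions or their mean, and between lines it left 1 member.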

Other observations

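For the 3 members that differed most between lines, 5 genes on either side were read, a choice made after the values were seen. These were the nearest in the genome order with a probeset of a single symbol. Genes without such a probeset were skipped, so a closer neighbour may not have been read. None of the 10 neighbours read for *Hadh* on chromosome 3, for *Pdk4* on chromosome 6 or for *Ucp3* on chromosome 7 passed between lines in limma. The nearest to passing were *Slc25a13* near *Pdk4* (0.25, adjusted p = 0.0741), which encodes a mitochondrial aspartate-glutamate carrier, and *Papss1* near *Hadh* (0.28, adjusted p = 0.0863). Between deleted hearts alone *Slc25a13* was higher in the *Gata4*-deleted hearts (0.40, adjusted p = 0.0455). *Rpl34*, next but one to *Hadh* among the genes read, was -0.41 between lines (adjusted p = 0.178).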
